A study of Mus musculus with 18 samples.

Results

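The count tables of 2 long RNA assays list, beside RefSeq transcripts, stretches of the mouse genome (build mm9) that are named only by their coordinates. The stretches described here are those of 10 to 50 kb: every row whose name starts with a chromosome other than the mitochondrial one and whose end minus start is at least 10 kb and under 50 kb. They numbered 11495 of the 58851 genomic regions in the total RNA table and 6737 of the 36872 regions in the poly(A) RNA table. Together they make 11940 different regions, of which 6292 are in both tables. No region overlaps another.

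The cells were embryonic stem (ES) cells of C57BL/6 mice at passages 19 to 22, and every group lacked HPRT, an enzyme of purine salvage. After growth on feeder-coated plates and a last passage on gelatin, 3 samples received cisplatin at 2.5 µM and 3 control samples its solvent DMSO, for a time that the labels do not state. Cisplatin is a platinum compound that forms crosslinks in DNA. RNA of each sample went into an mRNA-seq library, which selects poly(A) RNA, and an RNAome-seq library, in which total RNA was depleted of rRNA and fragmented before small RNA adapters were ligated. Samples carry the codes 8.3.3, 8.4.3 and 8.5.3 (cisplatin) and 8.4.16, 8.5.16 and 8.6.16 (control), and values below are given in that order. Since no label says whether replicates were grown apart, every p-value speaks only of the spread among these libraries, which may be technical.

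Introns are transcribed with the exons around them and are cut out of the pre-mRNA during splicing, after which most intron RNA is degraded quickly. Reads inside introns therefore come mainly from RNA that is not yet spliced, and total RNA holds more of it than poly(A) RNA. RNA polymerase II crosses a long gene slowly and can be stopped by bulky lesions and crosslinks on the template strand. Gaps between genes can hold unannotated exons, transcription past a gene's end, small RNA genes, and processed pseudogenes, which are copies of spliced mRNAs pasted back into the genome.

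Most of the regions are long introns. Of the 11940 regions 7050 (59.0%) coincide with an intron of the GENCODE vM1 annotation, 651 (5.45%) lie inside a gene in another way, and 4239 (35.5%) lie between genes. Of those introns 34.3% are the first intron of their gene, against 12.2% of the introns that coincide with regions of other sizes. Small RNA genes (small nuclear, small nucleolar and similar RNAs) lie in 650 regions (5.44%). Splicing marks an intron by GT at its start and AG at its end, and 7004 of the 7050 introns (99.3%) had both, as against 31 of the 4239 gaps between genes (0.731%, read on the plus strand). The ends of 4 introns that were lower with cisplatin are shown because they show that such a row is 1 whole intron, from splice site to splice site. These are the first and last 30 bases of each intron on the strand of its gene, read from NCBIM37, the assembly of mm9, with GT and AG in capitals. Klf12 intron 4 (chr14:100341316-100386649, minus strand), Exoc4 intron 14 (chr6:33812240-33860487, plus strand), Kat6b intron 12 (chr14:22456863-22479964, plus strand) and Msi2 intron 11 (chr11:88162495-88180286, minus strand) read as follows.
Klf12 intron 4, start: GTaagtaccaccttcttgggctggaacgag
Klf12 intron 4, end: aatgactgacttactctggtctgttgacAG
Exoc4 intron 14, start: GTaagtgccctggggggcggggggagctgc
Exoc4 intron 14, end: gatgtttttttttgccttctcttcttccAG
Kat6b intron 12, start: GTaagtgaaatacattacttccttccagag
Kat6b intron 12, end: gctgagtgcagttttgcttttcctgcctAG
Msi2 intron 11, start: GTaggaaggtgtacggggcaggcggctccc
Msi2 intron 11, end: tcatacccagctctattctctgcacaccAG

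A second set is shown because it lies in the 2 regions with the highest level per kb in total RNA. Both hold an annotated copy of the microRNA gene mir-2134, one in intron 6 of Peak1 (chr9:56071522-56071578, minus strand) and one in the gap between Tmco1 and Aldh9a1 (chr1:169270500-169270555, minus strand). The copies were identical at 55 of 57 aligned columns (96.5%), with 1 gap. Capitals mark the bases that differ.
mir-2134-4: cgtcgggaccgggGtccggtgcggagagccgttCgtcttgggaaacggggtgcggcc
mir-2134-1: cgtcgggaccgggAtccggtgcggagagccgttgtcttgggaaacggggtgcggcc

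The last set gives examples of what 13 of the 20 highest regions of poly(A) RNA hold: near-identical copies of other genes' coding sequences or of mitochondrial DNA. Each pair below gives 80 bases of the matched sequence and of the copy, with the differing bases in capitals. The coding sequences are those of GENCODE vM1, from base 23 to 102. The copies lie at chr13:67911205-67911284 (plus strand, gap between Zfp493 and Zfp273), chr10:14467007-14467086 (minus strand, gap between Gje1 and Nmbr) and chr2:22445088-22445167 (minus strand, intron 30 of Myo3a). The mitochondrial stretch is chrM:5328-5407, in the cytochrome oxidase gene mt-Co1.
Rplp0: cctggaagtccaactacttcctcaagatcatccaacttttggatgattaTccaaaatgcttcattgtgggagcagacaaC
copy between Zfp493 and Zfp273: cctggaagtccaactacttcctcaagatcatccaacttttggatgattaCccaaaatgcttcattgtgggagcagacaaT
Hspa8: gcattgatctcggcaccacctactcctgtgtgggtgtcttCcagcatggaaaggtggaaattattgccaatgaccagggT
copy between Gje1 and Nmbr: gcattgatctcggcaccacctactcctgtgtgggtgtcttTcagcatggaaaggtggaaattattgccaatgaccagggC
mitochondrial DNA: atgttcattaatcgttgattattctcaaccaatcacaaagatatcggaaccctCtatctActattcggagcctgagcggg
copy in Myo3a: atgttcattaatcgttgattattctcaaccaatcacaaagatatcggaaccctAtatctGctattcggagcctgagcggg

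Libraries held 22262097 to 58535021 counts in RNAome-seq and 13074665 to 20269697 in mRNA-seq. In RNAome-seq every cisplatin library (44343433, 58535021 and 56813908 counts) was deeper than every control (22262097, 42202916 and 24815158). Depth and treatment therefore cannot be told apart in total RNA. Control 8.4.16 was the shallowest library of each assay, and results that rest on it are given without it as well. Counts per region were low: the median region had 29 counts over the 6 RNAome-seq libraries and 116 over the 6 mRNA-seq libraries. After a filter on low counts 3420 of the 11495 regions (29.8%) were tested in total RNA and 5241 of the 6737 (77.8%) in poly(A) RNA. A region can pass that filter through the group where it is high, so the tested regions are a selection. All 10 ES cell markers were tested in each assay, and their summed level in poly(A) RNA was 2660 to 2740 CPM (the count scaled to the library size) with cisplatin and 3120 to 3350 CPM in controls, with 7 of the 10 lower and 0 higher by edgeR. Of 10 fibroblast markers of the feeder cells 8 were tested in poly(A) RNA, at 624 to 739 CPM summed with cisplatin and 860 to 880 CPM in controls. Most of these sums came from Fn1 (484 CPM with cisplatin and 646 CPM in controls) and Vim (164 and 190 CPM). Of those 8 only Fn1 and Vim were lower with cisplatin by edgeR, and Lum and Dcn were not tested. The others were not called, at log2 changes from -0.2 (Col3a1) to 0.92 (S100a4). Of the 4 trophectoderm markers 1, Krt18, was higher with cisplatin in poly(A) RNA, and the 3 tested primitive endoderm markers stood at 3.55 to 6.28 CPM summed with cisplatin and 4.19 to 6.72 CPM in controls. The part of these cell types in the results below was not tested, and in bulk RNA fewer cells of a type cannot be told apart from less RNA per cell.

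In total RNA a few regions with small RNA genes held most of the counts. The 10 regions with the most counts took 73.2% to 79.6% of all counts on the regions, and regions with a small RNA gene took 80.6% to 85.8%. The gap between Tmco1 and Aldh9a1, which holds mir-2134-1 and a U6 gene, had a mean of 1310 CPM per kb. Intron 6 of Peak1, with mir-2134-4, had 1140 CPM per kb. Reads that match one of these copies also match the other nearly as well, so their levels as separate regions are uncertain. Whether reads left over from rRNA add to these levels was not tested. Intron 2 of Tex14 (235.0 CPM per kb) and the gap between Gtf3c6 and Amd1 (104.0 CPM per kb) hold a U3 gene, the small nucleolar RNA that guides the first cuts of pre-rRNA. The gap on the left of Gsta4 (234.0 CPM per kb) holds 7SK, the RNA that keeps the elongation factor P-TEFb inactive.

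Of the 261 tested regions with a small RNA gene 1 (0.383%) was called higher and 2 (0.766%) lower in total RNA. Among all features tested the shares were 0.809% and 0.712%, so these counts are no result about small RNA regions. The 5 highest regions did not pass the test. The gap between Tmco1 and Aldh9a1 had 598034, 800708 and 751779 counts with cisplatin and 822646, 756497 and 596205 in controls. Scaled to the library these were 10500, 10900 and 19900 CPM against 44600, 20500 and 19100 CPM, with control 8.4.16 far above the rest and the groups overlapping. The log2 difference was -1.03 ± 0.75 (SE, edgeR, adjusted p = 0.645), and that of the Peak1 intron was the same to 2 decimals. The Tex14 intron stood at 7300.0, 10300.0 and 9420.0 CPM against 11300.0, 12300.0 and 6290.0 CPM, again with overlap, a log2 difference of -0.15 ± 0.63 (adjusted p = 0.963). The 7SK region differed by 0.09 ± 0.56 on the log2 scale and the U3 region between Gtf3c6 and Amd1 by -0.05 ± 0.53.

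All counts on the regions together made up 7.16%, 7.92% and 5.93% of total RNA counts with cisplatin and 13%, 8.02% and 9.07% in controls. Every control was above every cisplatin library; cisplatin minus control was -3.03 percentage points, with an exact two-sided permutation p of 0.1, the smallest that 3 against 3 libraries allow. Without control 8.4.16 the difference was -1.54 points. The 3 regions with a mir-2134 gene, the third being the gap beside Mrto4, held 40.2%, 36.6% and 47.6% of the counts on regions with cisplatin and 61.1%, 47.4% and 55.7% in controls. With these left out, a choice made after the data were seen, the shares were 4.41%, 5.17% and 3.20% against 5.51%, 4.39% and 4.23%, which overlapped (difference -0.45 points, exact permutation p = 0.6). The shares in poly(A) RNA were 4.77%, 4.82% and 4.82% against 4.68%, 4.66% and 4.55%. Here every cisplatin library was above every control, with a mean difference of 0.173 percentage points (exact permutation p = 0.1).

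The highest regions in poly(A) RNA were mostly those with copies of abundant transcripts. A copy was counted where at least 500 bases matched the coding sequence of another gene, or mitochondrial DNA, at 90% identity or more, and a coding match also had to span 60% of that sequence. Such copies lay in 411 of the 5241 tested regions (7.84%), but in 49 of the 100 highest by CPM per kb (49.0%) and in 13 of the 20 highest (65.0%). In total RNA the numbers were 290 of 3420 (8.48%), 13 of 100 and 1 of 20. Highest of all in poly(A) RNA was intron 30 of Myo3a, at 100.0 CPM per kb, which holds 3260 bases of mitochondrial DNA at 97.4% identity. The gap between Gje1 and Nmbr (19.7 CPM per kb) holds a copy of Hspa8, a chaperone gene, over 1941 bases at 98.7% identity, and the gap between Zfp493 and Zfp273 (16.5 CPM per kb) a copy of Rplp0, a ribosomal stalk protein gene, at 97.4%.

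Among the 20 highest regions of poly(A) RNA, 12 hold a copy of a coding sequence, and their log2 changes could be set beside those of the matched transcripts in the same table. The Hspa8 copy stood at 785.0, 768.0 and 790.0 CPM with cisplatin and 836.0, 868.0 and 929.0 CPM in controls, without overlap. Its log2 change was -0.17 ± 0.04 (edgeR, adjusted p = 0.0073, and 0.0585 without library 8.4.3), as was that of the Hspa8 transcript, -0.17 ± 0.04. For the nucleophosmin gene Npm1 the region in intron 2 of Zfp605 was at -0.21 ± 0.06 (-0.13 ± 0.05 and no longer called without control 8.6.16) and the transcript at -0.24 ± 0.06. For the translation factor Eif4a1 the values were -0.33 ± 0.06 in the gap between Olfr235 and Olfr1433 and -0.32 ± 0.05. Copies of Rplp0 (0.09 ± 0.05), Rps9 (0.07 ± 0.05) and Tuba1b (-0.12 ± 0.05) did not pass the test, and neither did their transcripts (0.06, 0.07 and -0.10). The copy of Fbl, a nucleolar methyltransferase gene, was at 0.06 ± 0.05 and its transcript at -0.08 ± 0.06. Of the 20 highest regions of total RNA 1 holds such a copy, of the cyclin gene Ccnd3, together with a mir-2134 gene, and there the region (-1.17 ± 0.56) and the transcript (0.03 ± 0.24) lay apart. The Myo3a intron was at 2090.0, 2130.0 and 2150.0 CPM against 1960.0, 1990.0 and 1860.0 CPM, higher by 0.13 ± 0.04 (adjusted p = 0.018, and up to 0.081 when 8.4.3 or 8.5.3 was left out). Reads of a parent gene and of such a copy cannot be told apart here, so these regions are uncertain as transcripts of their own.

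**Figure D1:**
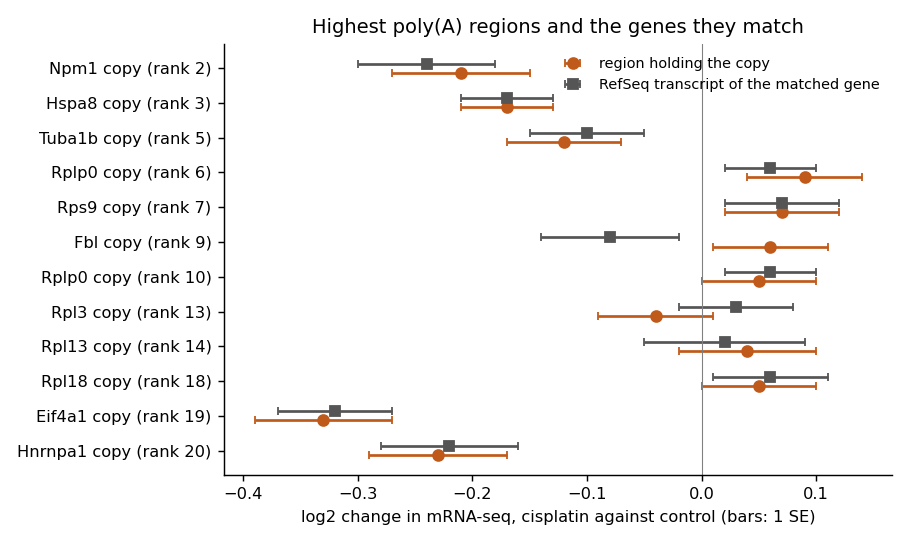
Log2 change in mRNA-seq, cisplatin against control, for the highest regions of poly(A) RNA that hold a coding copy (circles) and for the RefSeq transcript of the matched gene (squares); bars are 1 SE. Most pairs lie within 1 SE of each other, as for Hspa8 (-0.17 for each) and Eif4a1 (-0.33 and -0.32), with Fbl at 0.06 and -0.08 the pair furthest apart on opposite sides of 0.

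Levels were then compared between the assays in 1 fit of 12 libraries, without a term for the sample and relative to each assay's own scaling. Of 5541 regions 3306 (59.7%) were higher in total RNA and 771 (13.9%) lower by edgeR, beside 32.9% and 33.1% (66.0% in all) of the 42264 features tested. With scaling taken from RefSeq coding transcripts the split was 4159 to 315. The median log2 difference was 1.011 for the regions and -0.697 for RefSeq coding transcripts. Regions inside genes had a median of 1.419 (2146 higher and 257 lower of 3107), and regions between genes 0.526 (1160 higher and 514 lower of 2434). The 5 largest differences towards total RNA were in regions with small RNA genes. They were the gaps between Tmco1 and Aldh9a1 (log2 difference 16.07 ± 0.59) and between Gtf3c6 and Amd1 (15.41 ± 0.43), then the gap between Sirt4 and Pxn with a U4 gene (14.85 ± 0.36), that between Rdm1 and Arl4d with a U2 gene (14.74 ± 0.34) and that between BC021614 and Cabp2 with a U3 gene (14.74 ± 0.33). The U2 region had 34052, 57286 and 32849 counts with cisplatin and 16362, 36237 and 17654 in controls in total RNA, and 5 to 12 counts per library in poly(A) RNA. Towards poly(A) RNA, intron 8 of Adamts17, a metalloprotease gene, differed by -3.60 ± 0.24, with 143 to 241 counts per mRNA-seq library and 1 to 4 per RNAome-seq library. The gap between Vmn1r65 and Nlrp4c differed by -3.10 ± 0.16.

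The first treatment comparison asks which regions differ in total RNA after cisplatin. Introns deep inside some long genes (Klf12, Exoc4, Kat6b, Cobl) and 4 gaps beside histone genes were lower, and gaps beside several genes, among them Mdm4, were higher. Of 3420 regions 15 (0.439%) were higher and 13 (0.380%) lower by edgeR, beside 0.809% and 0.712% (1.52% in all) of the 22612 features tested, which is a smaller share than among features at large. The groups did not overlap for 256 regions with higher and 262 with lower values (15.1%), beside 9.02% and 8.19% (17.2% in all) of the features tested. Scaling to total counts gave 5 higher and 2 lower. Calls were fragile: only 3 of the 28 called regions (the gap between Hist1h2bn and Hist1h1b, that between Pom121l2 and Prss16, and the Slc8a1 intron) kept their call whichever library was left out. The number of higher regions was 9 without 8.4.3, 3 without 8.5.3 and 2 without 8.6.16, and that of lower regions 4 without 8.3.3, 5 without 8.4.3 and 7 without 8.5.16.

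The 4 histone gaps lie beside replication-dependent histone genes, whose mRNAs end in a stem-loop and have no poly(A) tail. The gap between Hist1h2bn and Hist1h1b (chr13:21846373-21871751) stood at 1.74, 1.85 and 1.85 CPM with cisplatin and 3.80, 5.65 and 3.53 CPM in controls. All 3 cisplatin libraries were below all 3 controls, and the log2 change was -1.27 ± 0.20 (adjusted p = 0.00139). The gap between Gucy2c and Hist4h4 (chr6:136730264-136752588) went from 3.80, 5.28 and 4.33 CPM in controls to 2.13, 1.81 and 2.67 CPM, again without overlap, by -1.05 ± 0.19 (adjusted p = 0.00549). The gaps between Hist1h2bm and Hist1h4j and on the left of Hist1h4n each changed by -0.96 ± 0.19. Transcripts of neighbouring histone genes were lower in the same table, with Hist1h2bn at -1.36, Hist1h1b at -1.22 and Hist4h4 at -0.98 (adjusted p = 0.00155, 0.0209 and 0.0224), whereas Hist1h4n, at -0.78, missed the threshold (adjusted p = 0.0889). Not every gap followed its neighbours. The gap between Hist1h2bp and Hist1h2bq was at 0.59 ± 0.29, without overlap but not called (edgeR, adjusted p = 0.447), beside transcripts at -1.38 and -1.30. The gap between Olfr1359 and Hist1h2bl was at 0.19 ± 0.33, with the Hist1h2bl transcript at -1.36. Both were chosen after their values were seen. Over the 13 tested regions with a histone gene on at least 1 side, a grouping chosen after the values were seen, the median log2 change was -0.419, with 76.9% below 0. By edgeR 4 (30.8%) were lower and 0 higher, beside 0.712% and 0.809% of all features tested. DESeq2 called 4, and 6 were at an unadjusted p under 0.05 by edgeR. Among 7 such regions tested in poly(A) RNA, 1 was higher and 2 lower, beside 10.6% and 10.7% of all features tested. The gap between Hist1h2bn and Hist1h1b was one of the lower ones (-1.34 ± 0.33, adjusted p = 0.00349).

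Among the introns lower in total RNA, those of Klf12, Exoc4 and Kat6b started 137.8 to 613.2 kb from the gene's 5′ end. They were chosen after their values were seen, except Klf12, which the naming rule took from poly(A) RNA. Intron 14 of Exoc4, an exocyst subunit gene, had 3, 6 and 0 counts with cisplatin and 7, 15 and 9 in controls. The groups did not overlap, and the log2 change was -2.69 ± 0.54 (adjusted p = 0.0102, 0.098 at most without 1 library). Intron 4 of Klf12, a Krüppel-like repressor gene, had 5, 9 and 1 counts against 9, 16 and 10, which after scaling gave 0.0879, 0.122 and 0.0265 CPM against 0.488, 0.433 and 0.321 CPM (-2.17 ± 0.46, adjusted p = 0.0153). Intron 12 of Kat6b, a histone acetyltransferase gene, stood at 0.369, 0.190 and 0.318 CPM against 0.651, 0.812 and 0.931 CPM (-1.51 ± 0.31, adjusted p = 0.0131). Each of these introns was lower in every cisplatin library than in any control, on few counts. Intron 10 of Cobl, an actin nucleator gene, changed by -1.19 ± 0.27 in total RNA and the Cobl transcript by -1.20 ± 0.26. The other lower regions lie in Cdyl (-1.11), Adam23 (-1.06) and intron 1 of Stmn2 (-1.05), and beside Rimkla (-1.53) and Ifngr2 (-1.57). The Ifngr2 gap overlapped between groups, at 4.43, 4.19 and 9.27 CPM against 32.3, 9.12 and 11.8 CPM, and lost its call without 8.3.3, 8.4.3 or control 8.4.16 (-0.84 ± 0.27 without the last).

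Most regions that were higher in total RNA lie between genes, 10 of 15, against 1308 of all 3420 tested. The gap between Pom121l2 and Prss16 (chr13:22080604-22094044) stood at 14.4, 19.1 and 28.2 CPM with cisplatin and 8.74, 5.82 and 2.47 CPM in controls. It did not overlap, rose by 1.88 ± 0.32 on the log2 scale (adjusted p = 0.00331) and kept the call without any 1 library. The gap between Morf4l1 and Adamts7 (chr9:90009659-90057815) went from 4.72, 8.06 and 4.36 CPM to 10.7, 14.6 and 16.9 CPM, by 1.28 ± 0.24 (adjusted p = 0.00543). The same region in poly(A) RNA had a log2 difference of 0.16 ± 0.10 and did not pass the test, while the Adamts7 transcript was higher there, at 1.31. Intron 5 of Ascc1, a gene of the alkylation repair complex ASCC, was higher by 1.22 ± 0.25 and intron 1 of Trim7 by 1.19 ± 0.24, with poly(A) values of 0.00 and 0.11. The gap between Lrrn2 and Mdm4, the gene of a p53 inhibitor, had 3.87, 4.28 and 3.31 CPM against 2.55, 2.35 and 1.57 CPM in total RNA (0.85 ± 0.20, adjusted p = 0.0329). Its poly(A) values were 131.0, 135.0 and 128.0 CPM against 94.7, 89.2 and 75.4 CPM (0.60 ± 0.07, adjusted p = 1.61e-07), and the Mdm4 transcript changed by 0.60 as well. The remaining higher regions, chosen after their values were seen, include the gaps between Pld4 and BC022687 (2.30 ± 0.50), Efna1 and Efna3 (2.18 ± 0.54) and Mpzl1 and Rcsd1 (1.27 ± 0.25), and intron 1 of Sdc4, a heparan sulfate proteoglycan gene (2.13 ± 0.53, with the Sdc4 transcript at 1.38). The Pld4 gap had 28, 65 and 26 counts with cisplatin and only 5, 7 and 0 in controls. The gap between Efna1 and Efna3 lost its call whichever library was left out. The Sdc4 intron kept its call only without 8.3.3. Intron 8 of Slc8a1, a sodium-calcium exchanger gene, was called higher on uneven counts: 4249, 37 and 2838 with cisplatin and 1, 27 and 0 in controls. Library 8.4.3 lay within the control range after scaling, at 0.503 CPM against 0.0543, 0.731 and 0.00 CPM, so the groups overlapped. The region was not in the poly(A) table. The gap between Sp2 and Sp6 had 12, 24 and 15 counts with cisplatin and 1, 0 and 2 in controls, too few in controls for a fold change in total RNA to be read. In poly(A) RNA, with more counts, it was higher by 1.59 ± 0.27 without overlap (edgeR, adjusted p = 8.19e-05), and the Sp6 transcript by 1.38.

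**Figure D2:**
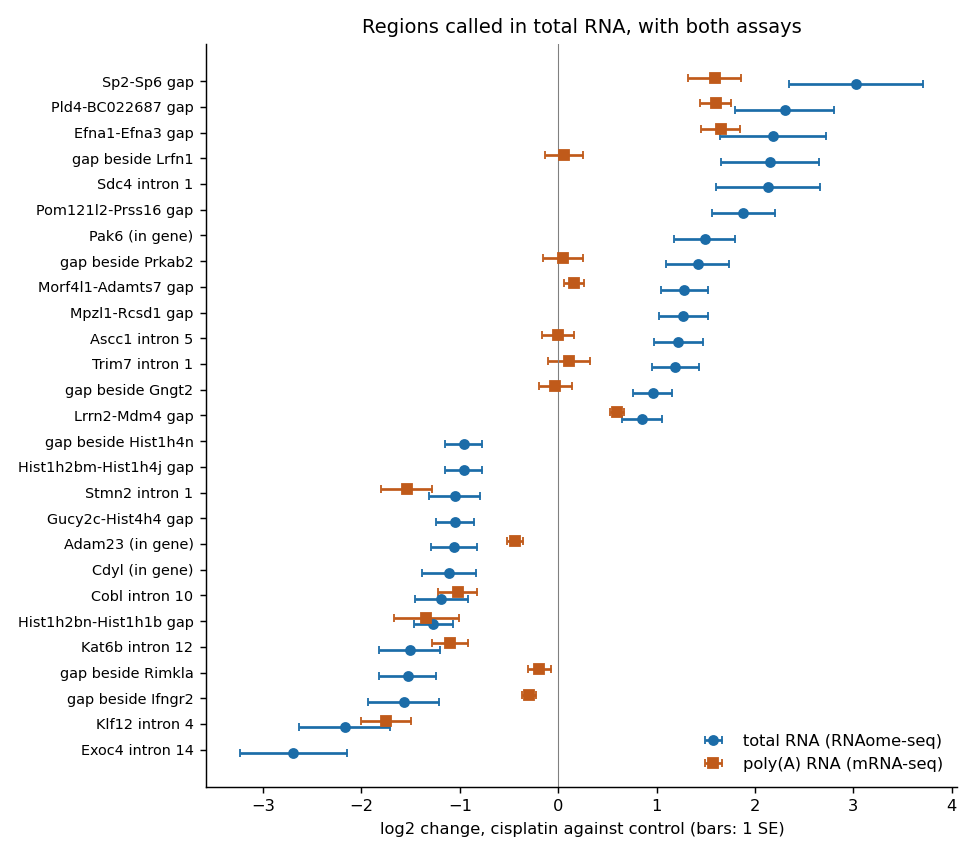
Log2 change with cisplatin of the regions called in RNAome-seq (circles), with their change in mRNA-seq where it was tested (squares); bars are 1 SE, and the Slc8a1 intron is left out for scale. Among the regions drawn, the 4 called histone gaps and the introns of Klf12, Exoc4, Kat6b and Cobl lie below 0 in total RNA. The Ascc1 and Trim7 introns are at 1.22 and 1.19 in total RNA beside 0.00 and 0.11 in poly(A) RNA. The Slc8a1 intron was higher (7.33), and histone gaps that were not called are not drawn.

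The second treatment comparison concerns poly(A) RNA, where some gaps next to induced genes were higher and some introns late in long genes lower. Of 5241 regions 395 (7.54%) were higher and 386 (7.37%) lower by edgeR, beside 10.6% and 10.7% (21.3% in all) of the 43806 features tested. With scaling to total counts 540 were higher and 253 lower. The groups did not overlap for 760 regions with higher and 743 with lower values (28.7%), beside 17.8% and 17.2% (35.0% in all) of the features tested. The higher regions lay mostly between genes (272 of 395), against 2414 of all 5241 tested. Of the lower ones 229 of 386 (59.3%) lay inside genes, near the 55.5% of regions that were not called. Called regions in genes started at a median of 10.4 kb from the 5′ end when higher and 80.2 kb when lower, in genes with a median length of 55.4 and 142.0 kb. For regions in genes that were not called, the median start was 13.4 kb and the median gene length 69.3 kb.

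The 8 largest decreases in poly(A) RNA, among called regions without overlap and with a mean log2 CPM of at least 1, taking 1 per gene, included 7 introns, which started 162.4 kb or more from the 5′ end. Below that level limit, introns with comparable or larger changes also started nearer, such as intron 11 of Lef1 (-1.95, at 94.5 kb), intron 19 of Kdm4c (-1.61, at 135.3 kb) and intron 1 of Stmn2 (-1.54, at 0.1 kb). Intron 4 of Klf12 stood at 0.872, 0.744 and 1.08 CPM with cisplatin and 3.30, 3.46 and 2.22 CPM in controls. The groups were far apart, with a log2 change of -1.75 ± 0.25 (adjusted p = 9.93e-06), and the Klf12 transcript changed by -1.79 ± 0.16. Intron 11 of Msi2, an RNA-binding protein gene, stood at 1.16, 1.17 and 1.01 CPM against 4.64, 3.56 and 2.84 CPM, a change of -1.69 ± 0.23 with the transcript at -1.24 ± 0.07. Intron 20 of Dennd1a, a Rab exchange factor gene, went from 3.38, 3.05 and 3.14 CPM in controls to 1.22, 1.22 and 1.01 CPM, by -1.45 ± 0.22. Controls were above cisplatin libraries throughout for these introns. Intron 15 of Cobl (-1.41 ± 0.18), intron 39 of Vps13b, a lipid transfer protein gene (-1.31 ± 0.24), intron 11 of Enox1 (-1.31 ± 0.28) and intron 25 of Ranbp17 (-1.22 ± 0.15) fell in the same way. Their transcripts were lower as well, at -1.12, -0.94, -1.18 and -0.57. The gap beside Rad51l1, a homologous recombination gene also called Rad51b, had 1.40, 1.86 and 1.16 CPM against 4.01, 4.12 and 3.70 CPM (-1.39 ± 0.21, adjusted p = 1.35e-05), with the Rad51l1 transcript at -0.73. These 8 kept their calls whichever library was left out.

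The largest increases in poly(A) RNA under the same limits were mostly gaps next to genes that rose too. The gap on the left of Sox18, a gene of an endothelial transcription factor, stood at 5.58, 5.53 and 6.79 CPM with cisplatin and 0.629, 0.764 and 0.370 CPM in controls. It was higher by 3.30 ± 0.24 (adjusted p = 1.67e-10), and the Sox18 transcript by 1.06. The gap beside Sec14l5 had 4.48, 6.17 and 7.87 CPM against 0.786, 0.865 and 0.493 CPM, a change of 3.07 ± 0.26, with the Sec14l5 transcript at 3.24. In both gaps each cisplatin library was several times above each control. The gap between Glp1r, the receptor gene of the gut hormone GLP-1, and Umodl1 was higher by 2.33 ± 0.20 (Glp1r transcript 2.09). The gap between Efna1 and Efna3, genes of ephrin ligands, stood at 5.17, 4.73 and 3.97 CPM against 1.57, 1.48 and 1.42 CPM (1.65 ± 0.20), and both genes rose, by 1.05 and 1.31. Inside genes, intron 1 of Bfsp2, a lens filament gene, was higher by 2.36 ± 0.27 and intron 1 of Svop, a synaptic vesicle transporter gene, by 1.72 ± 0.20 with its transcript at 2.89. The gap between Plod3 and Vgf was higher by 1.79 ± 0.19, while the Vgf transcript, at 0.44, did not pass the test (adjusted p = 0.0611). These 7 also kept their calls without any 1 library. Below the level limit the gap beside Dlx3, chosen after its values were seen, was higher by 3.77 ± 0.45.

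**Figure D3:**
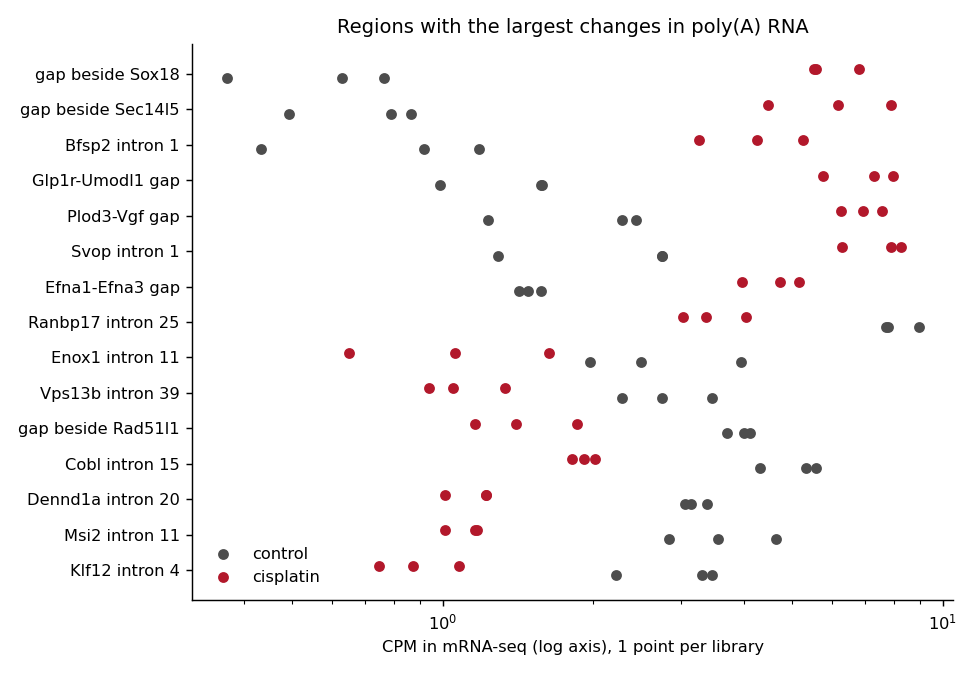
CPM in mRNA-seq (log axis), 1 point per library, with colours for the treatment. Drawn are 7 of the 8 regions with the largest increases and the 8 with the largest decreases. They were taken among called regions without overlap and with a mean log2 CPM of at least 1, 1 per gene. Cisplatin libraries lie right of the controls for the gaps beside Sox18 and Sec14l5 and left of them for introns of Klf12 and Msi2.

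Regions and their genes mostly moved the same way in poly(A) RNA. Of 203 lower regions in a gene whose transcript was tested, 79.3% had a lower host transcript, against 39.8% of all 2578 tested regions with a tested host. Of 110 higher ones 53.6% had a higher host transcript, against 9.43% of all. Among gaps, 52.3% of 239 higher ones had a higher transcript on at least 1 side, against 24.0% of all 1956, and 55.8% of 120 lower ones had a lower one, against 28.6%. Regions and transcripts share the libraries, and mRNA-seq reads of unannotated exons or transcript ends were not told apart from reads of unspliced RNA.

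Regions in genes and between genes differed in their median. In total RNA the median log2 change was -0.075 in genes and 0.058 between genes, beside 0.003 over all features tested. The medians in poly(A) RNA were -0.068 and 0.061, beside 0.008. Over length bins of 10 kb within the range, the medians lay between -0.058 and -0.020 in total RNA and between -0.019 and 0.000 in poly(A) RNA. Just inside and just outside the size limits the medians were -0.064 (10 to 11 kb) and -0.097 (9 to 10 kb), and -0.065 (45 to 50 kb) and -0.021 (50 to 55 kb), in total RNA. For poly(A) RNA they were 0.011 and -0.018, and -0.001 and -0.011.

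Medians were lower far from the 5′ end than near it, with the exceptions given here. In total RNA the median log2 change was -0.031 for regions starting under 10 kb from the 5′ end, -0.091 at 10 to 25 kb, -0.157 at 25 to 50 kb, -0.202 at 50 to 100 kb, -0.206 at 100 to 200 kb and -0.220 beyond. The same bins of poly(A) RNA gave -0.019, -0.007, -0.046, -0.178, -0.232 and -0.295, so the first 2 bins were not in this order. With scaling to total counts, which moved the median of all features to 0.118 in total RNA and 0.096 in poly(A) RNA, the medians under 50 kb turned from -0.055 to 0.067 and from -0.023 to 0.065, and those at 100 kb or more went from -0.208 to -0.076 and from -0.274 to -0.186. The bins held 59 to 1264 regions in total RNA and 147 to 1252 in poly(A) RNA. At 100 kb or more, 98 of 431 regions (22.7%) were lower and 16 higher in poly(A) RNA, against 96 (4.75%) lower and 93 higher of 2021 regions starting under 50 kb. In total RNA these were 5 lower (2.89%) and 1 higher of 173, and 1 lower (0.0578%) and 4 higher of 1731. Among all features tested 10.7% were lower and 10.6% higher in poly(A) RNA, and 0.712% and 0.809% in total RNA. Beside these, the distal shares of lower regions lay above and the proximal shares below. Later introns are in longer genes, and within genes of 200 kb or more the medians from under 50 kb, through 50 to 100 kb, to 100 kb or more were 0.029, -0.061 and -0.220 in total RNA and -0.144, -0.258 and -0.288 in poly(A) RNA. First introns had a median of -0.012 in total RNA and -0.036 in poly(A) RNA, and introns 3 or later -0.162 and -0.137.

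The filter on low counts ended this order in total RNA. With at least 50 counts asked for in 3 libraries, the median at 100 kb or more minus that under 50 kb went from -0.153 to 0.011 in total RNA (32 distal regions left) and from -0.251 to -0.062 in poly(A) RNA (101 left). Regions without a copy and without a small RNA gene kept a negative difference, -0.172 and -0.275. Among those in poly(A) RNA the difference was -0.261, -0.385, -0.333 and -0.126 for mean counts under 10, 10 to 20, 20 to 50 and 50 or more. In total RNA it was -0.324, -0.188, -0.157 and -0.160.

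**Figure D4:**
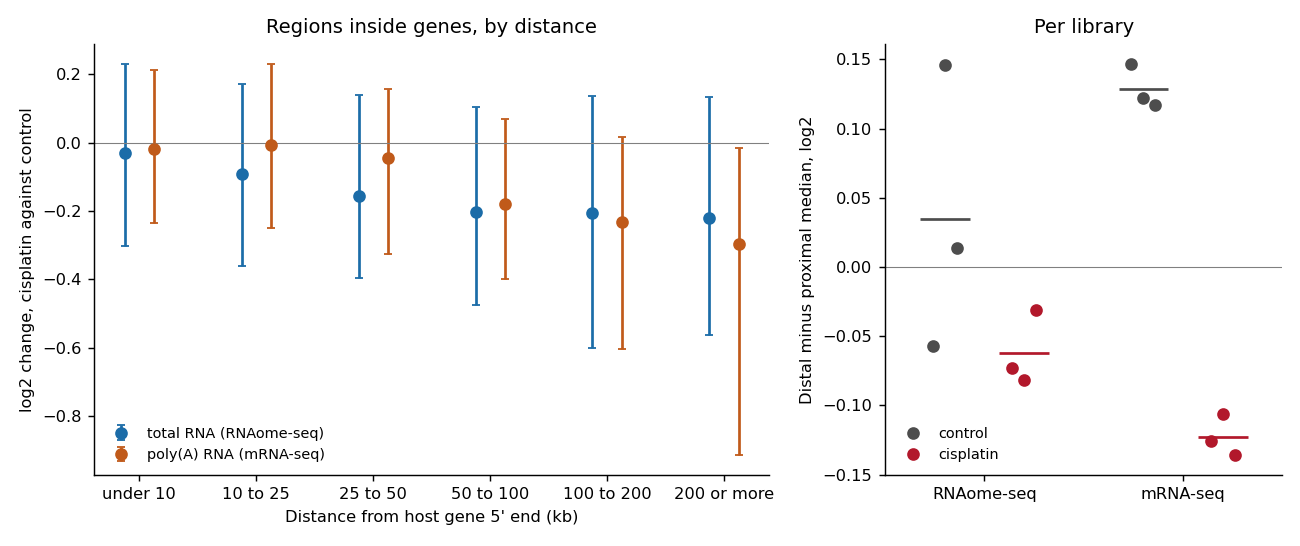
Left, median log2 change (points) and quartiles (bars) of tested regions inside genes by distance of the region's start from the gene's 5′ end; right, per library, the median over regions at 100 kb or more minus that under 50 kb of the centred log2 level, with lines at group means. Medians fall to -0.220 in RNAome-seq and -0.295 in mRNA-seq at 200 kb or more, and on the right the mRNA-seq groups are apart while the RNAome-seq groups overlap.

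Each library gives 1 value for this order, which allows an exact test with a smallest p of 0.1. The log2 ratio of summed counts of regions at 100 kb or more to those under 50 kb was 0.350, 0.056 and 0.788 with cisplatin and 1.559, 0.618 and 1.221 in controls in total RNA. The groups overlapped (difference -0.735, exact two-sided permutation p = 0.2). The poly(A) ratios were -1.270, -1.270 and -1.296 against -1.252, -1.297 and -1.305, a difference of 0.006 (exact permutation p = 0.8). The introns with the highest levels of each assay, in Peak1 (190.9 kb from the 5′ end) and Myo3a (286.2 kb), are among the distal regions of these sums. Averaged over genes that have both kinds of region, 274 in total RNA and 86 in poly(A) RNA, the differences were -0.443 and -0.186 (exact permutation p = 0.1 each). The median over tested regions, chosen after the data were seen, gave -0.126, -0.106 and -0.136 with cisplatin and 0.147, 0.122 and 0.117 in controls in poly(A) RNA (difference -0.251, exact permutation p = 0.1). In total RNA it gave -0.073, -0.082 and -0.031 against -0.057, 0.146 and 0.014, which overlapped (difference -0.096, exact permutation p = 0.2).

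Within a gene, the last tested region could be set against the first. In total RNA the last one had the lower log2 change in 187 of 299 genes (62.5%), with a median difference of -0.158. The poly(A) count was 194 of 381 (50.9%), with a median difference of -0.023. Faf1, a gene of an ubiquitin-binding protein, had the most tested introns together with Tns3, a gene of a focal adhesion protein, 8 each. In total RNA intron 1 of Faf1 was at 0.10 ± 0.23 on the log2 scale, intron 7 at -0.20 ± 0.25, intron 12 at -1.0 ± 0.36 and intron 18 at -1.14 ± 0.49. Of the 8 Faf1 introns 0 were called in total RNA by edgeR or DESeq2, and 4 reached an unadjusted p under 0.05 by edgeR (adjusted p from 0.23 to 0.917), although intron 12 did not overlap between groups, at 0.264, 0.190 and 0.159 CPM against 0.488, 0.379 and 0.417 CPM. Introns 12 and 18 were lower in poly(A) RNA, at -1.03 ± 0.34 and -0.88 ± 0.26 (edgeR, adjusted p = 0.0307 and 0.0147). The first lost its call without 8.4.3, 8.5.3, 8.4.16 or 8.6.16 and the second without 8.3.3, while DESeq2 gave no adjusted p for the first and did not call the second. In Tns3 the values in total RNA were -0.45 ± 0.26 in intron 1, -0.05 ± 0.29 in intron 3, -1.74 ± 0.51 in intron 13 and -0.61 ± 0.35 in intron 20, where 0 of 8 were called by edgeR or DESeq2 and 2 reached an unadjusted p under 0.05. Slc25a13, a mitochondrial aspartate-glutamate carrier gene, did not have this order, and its introns 1, 3, 13 and 14 were at -0.64, -0.32, 0.29 and -0.03.

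**Figure D5:**
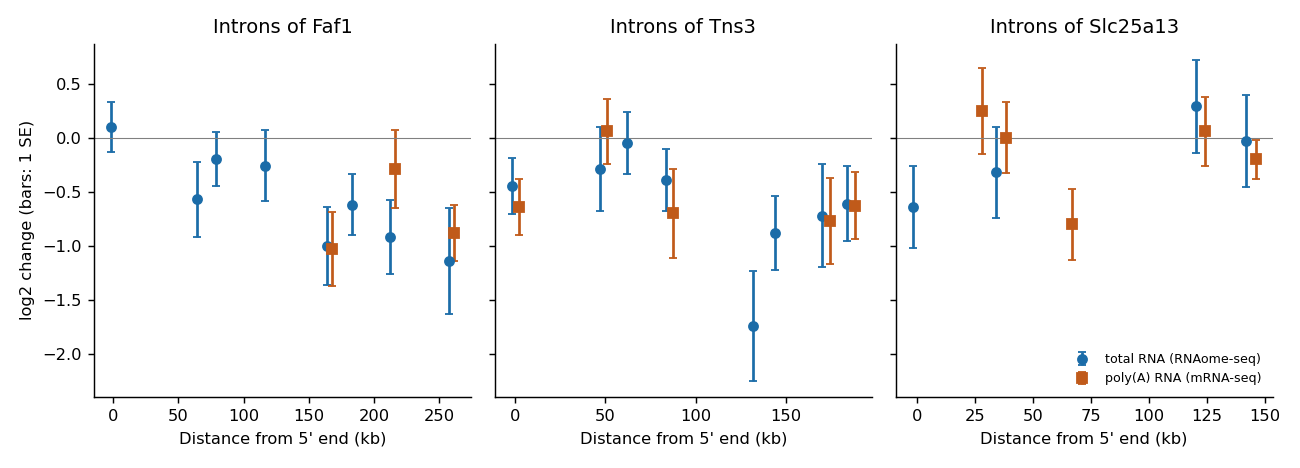
Log2 change with cisplatin (bars are 1 SE) of tested introns of Faf1, Tns3 and Slc25a13 against the distance of the intron's start from the gene's 5′ end, with RNAome-seq and mRNA-seq points drawn slightly apart. In RNAome-seq the Faf1 values run from 0.10 in the first intron to -1.14 in the last, not in strict order between, and those of Slc25a13 lie between -0.64 and 0.29.

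Host genes were then read by function, using lists of ES cell and damage response genes. Of 92 list regions tested in total RNA 0 were called by edgeR or DESeq2, and 10 reached an unadjusted p under 0.05 by edgeR. Medians there ran from -0.353 (chromatin regulators) to 0.108 (p53 targets). Of the 89 tested in poly(A) RNA edgeR called 18, of which DESeq2 called 11 and gave no adjusted p for 5, and edgeR's share (20.2%) is near the 21.3% of all features tested, so the list counts below are descriptions and no result about the lists. Among them 3 of 11 tested regions in p53 target genes were higher and 0 lower (median 0.035), beside 10.6% higher among all features tested, and DESeq2 called 2 and gave no adjusted p for the other. Intron 1 of Trp73, which encodes the p53 relative p73, stood at 1.22, 1.65 and 1.73 CPM with cisplatin and 0.315, 0.255 and 0.185 CPM in controls, and rose by 2.59 ± 0.37. Its intron 4 rose by 2.35 ± 0.35 and intron 2 of Zmat3, a p53-induced RNA-binding protein gene, by 1.56 ± 0.51, which lost its call without 8.4.3, 8.5.3, 8.4.16 or 8.6.16 and ran from 0.98 ± 0.45 without 8.6.16 to 2.96 ± 0.70 without 8.5.16. Of 10 regions in crosslink repair and damage signaling genes 0 were called by edgeR or DESeq2 and 0 reached an unadjusted p under 0.05, with a median of -0.302.

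Regions called in genes of chromatin and of developmental signaling were lower. Of 24 regions in chromatin regulator genes 5 were lower and 0 higher (median -0.329), beside 10.7% lower among all features tested, and DESeq2 called 3 and gave no adjusted p for 1. Intron 10 of Atrx, a chromatin remodeler gene, stood at 6.69, 7.87 and 7.15 CPM against 15.2, 14.7 and 11.4 CPM, a log2 change of -0.92 ± 0.13. Intron 19 of Kdm4c, a histone demethylase gene, changed by -1.61 ± 0.33 and intron 1 of Mtf2, a Polycomb accessory protein gene, by -0.38 ± 0.08. In Jarid2, a Polycomb cofactor gene, intron 3 changed by -1.12 ± 0.34 and lost its call without 8.4.3, 8.5.3 or 8.4.16. Its intron 4 stood at 48.9, 45.9 and 43.5 CPM against 117.0, 53.2 and 66.2 CPM, a change of -0.75 ± 0.16, which was -0.37 ± 0.09 without control 8.4.16 (edgeR, adjusted p = 0.00346). This intron ranked 9 by level per kb in total RNA (71.0 CPM per kb). Without 8.4.16 the poly(A) changes of 2 other such high regions shrank alike. Intron 6 of Peak1 went from -0.78 to -0.46 and the gap between Parp9 and Kpna1 from -0.76 to -0.36. Whether the reads of intron 4 are unspliced Jarid2 RNA was not tested. The Jarid2 transcript changed by -0.98 ± 0.05. Of 10 regions in Wnt and Hedgehog genes 3 were lower: intron 11 of Lef1, a Wnt effector gene (-1.95 ± 0.40), intron 3 of Gli2, a Hedgehog effector gene (-1.23 ± 0.35), and intron 3 of Znrf3, a Wnt inhibitor gene (-1.16 ± 0.25). DESeq2 called 1 of them and gave no adjusted p for the other two, and Gli2 lost its call without 8.5.3 or 8.5.16. Among 8 regions in adhesion and axon guidance genes 3 were lower, with intron 12 of Ncam1 at -1.09 ± 0.23 and the others in Tenm3. Among 12 in pluripotency genes 1 was lower, intron 8 of Nr5a2 (-1.21 ± 0.39), which lost its call without 8.4.3, 8.5.3 or 8.4.16 (adjusted p up to 0.149) and had no adjusted p in DESeq2. Of 6 in non-coding and imprinted hosts 2 were lower, intron 6 of the small nucleolar RNA host Rian (-0.81 ± 0.14) and intron 4 of Grb10 (-0.64 ± 0.17). Of 8 in elongation and RNA processing genes 1 was higher, intron 2 of the cyclin T2 gene Ccnt2 (0.81 ± 0.25), whose transcript was lower (-0.24). That call was lost without 8.4.3, 8.4.16 or 8.6.16 and by DESeq2. Single introns named here apart from those of Jarid2, Mtf2, Znrf3 and Rian were chosen after their values were seen.

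The last comparison tested whether the cisplatin effect differed between the assays. Of 5541 regions 0 differed by edgeR, beside 0.00473% of all 42264 features tested (0.00237% in each direction), and 357 reached an unadjusted p under 0.05. DESeq2 was not run for this test. Introns of Klf12 (intron 4, -0.47 ± 0.56 for total minus poly(A) RNA) and Kat6b (-0.47 ± 0.37) did not pass the test. The gap between Morf4l1 and Adamts7 (1.06 ± 0.23, adjusted p = 0.258) and the gap beside Rimkla (-1.39 ± 0.28, adjusted p = 0.162) had larger differences that did not pass either. The 2 assays were made from the same samples, but neither this fit nor the comparison of levels had a term for the sample. Both therefore treated the 2 libraries of a sample as independent, and the closing section gives this test with such a term.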

How the data were processed

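Total RNA (RNAome-seq) and poly(A) RNA (mRNA-seq) of 3 cisplatin and 3 control samples were used from the deposited tables of counts per feature. Per the submitters' processing notes the authors used Bowtie, TopHat and edgeR with build mm9; no source used here gives versions, the counting rule or how regions were set. Groups came from the labels. Each whole table was fitted in R 4.3.3 with edgeR 4.0.16, by the two-sided quasi-likelihood test after filterByExpr on the groups and TMM scaling. Calls had a Benjamini-Hochberg adjusted p, over all features tested, under 0.05. A standard error is the log2 change divided by the square root of F. CPM values use TMM-scaled totals of tested features. Per-library values were compared by exact permutation tests. Tested on simulated data, the fit recovered 27% of genes changed by log2 1 and 90% by log2 2 among 22612 RNAome-seq features, and 60% and 99% among 43806 mRNA-seq features.

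Introns and host genes came from GENCODE vM1 on NCBIM37, leaving out 2 gene models that span many genes. Distance runs from the host's 5′ end to the region's nearer end. RefSeq names came from a GRCm38.p6 table (17014 of 17590 and 18133 of 18732 transcripts matched) and no coordinates were taken from it. Copies were found with megablast. Members and gene lists were chosen with earlier results of these data known. Named regions are the 8 largest called changes per direction without overlap and with a mean log2 CPM of at least 1, 1 per host; the 8 highest per kb of each assay; up to 4 per gene list; those of the 3 genes with most tested regions; the 5 largest differences between assays per direction; and those in Jarid2, Ptprg, Mdm2 and Cdkn1a. Of these the text gives a part, and 1 of the largest increases in poly(A) RNA is not reported here. Alternatives were DESeq2 1.42.0, other scalings, other filters, the authors' second count table, a replicate block and leaving out each library.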

Additional observations from a re-analysis of the deposited data

How the results depend on the processing

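The balance of higher against lower calls was not stable. Of 15 higher and 13 lower regions in total RNA, DESeq2 called 8 and 9, total-count scaling 5 and 2, no filter 28 and 21, at least 50 counts in 3 libraries 7 and 5, and introns alone 4 and 5. Leaving out 1 library gave 2 to 16 higher and 4 to 12 lower, with 2 and 12 without control 8.6.16 and 3 and 11 without 8.5.3. Of 395 higher and 386 lower regions in poly(A) RNA, DESeq2 called 178 and 216 and gave no adjusted p for 88 and 33, the 50-count filter 189 and 225, introns alone 107 and 205, and total-count scaling 253 lower. Without 1 library 275 to 375 were higher and 268 to 436 lower. Total-count scaling moved the median of all features to 0.118 in total RNA and 0.096 in poly(A) RNA. It also moved the medians under 50 kb and at 100 kb or more to 0.067 and -0.076 in total RNA and to 0.065 and -0.186 in poly(A) RNA, each lower at the greater distance, so both medians under 50 kb changed sign. With the 50-count filter the distal minus proximal median turned from -0.153 to 0.011 in total RNA. Scaling by RefSeq transcripts left 315 regions lower in total RNA than in poly(A) RNA, in place of 771. The ratio of distal to proximal regions differed between treatments by -0.096 as a median in total RNA, where it ran from -0.992 to -0.522 without 1 library as a ratio of sums. For poly(A) RNA it was 0.006 as a ratio of sums (-0.004 to 0.022 without 1 library), -0.011 with distal regions taken from 50 kb, -0.186 as a mean over genes and -0.251 as a median, so its sign depended on the definition. The medians and the scalings of the distance result were chosen after seeing the data. The share of counts on the regions, cisplatin minus control, ran from -4.032 to -1.542 points in total RNA and from 0.133 to 0.198 in poly(A) RNA without 1 library. Without the 3 regions with mir-2134, chosen after seeing the data, it was -0.45 in total RNA. Leaving out regions with a copy, also chosen after seeing the data, gave 13 and 11 in total RNA and 381 and 334 in poly(A) RNA. Where a value moved, the cause was not tested, except that filters and introns alone change how many regions are tested.

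Sample codes share 2 first parts (8.4 and 8.5) between the groups. Deviations from the group means of these pairs correlated at -0.145 and 0.143 in total RNA and 0.079 and 0.080 in poly(A) RNA. The other pairs ran from -0.333 to 0.234 and from -0.068 to 0.107. With so few libraries these values cannot tell whether samples with a shared first part were handled together, and no label says what the parts mean. With the replicate block 15 regions were higher and 16 lower in total RNA, and 393 and 483 in poly(A) RNA. With a term for the sample the effect differed between assays for 4 regions in each direction, in place of 0. Without 1 library 0 to 2 differed upward and 0 to 1 downward.

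Depth limits what could be called: in total RNA the median region had 2 to 8 counts per library and 15 to 24 in poly(A) RNA.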
